A study of Arabidopsis thaliana with 6 samples.

Results

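The genes described are those that the gene table classes as small nuclear RNA (snRNA) genes on the 5 nuclear chromosomes of Arabidopsis thaliana, 82 of 37887 genes of all classes. Each was taken with 500 bp to either side, a stretch called its window below. The measurement was chromatin immunoprecipitation followed by sequencing (ChIP-seq), which maps where a protein sits on DNA, in whole seedlings aged 9 days under continuous white light. All 6 libraries carry the genotype label WDR5A-HA_pkl and an antibody label naming HA, the epitope tag, and their descriptions split them into 3 IP and 3 input libraries. The library titles name PKL with WT or jaw-5D instead, so bait and genotype rest here on the descriptions and the genotype label. The labels do not say which promoter drove the tagged WDR5A, and every library used shares the pkl background, so no comparison with plants that have functional PKL was made.

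Spliceosomal snRNAs are the RNA cores of the particles that remove introns. U1 pairs with the splice donor, U2 with the branch point, and U4, U5 and U6 enter together as the tri-snRNP, while U12, U4atac and U6atac serve the rare minor introns. In plants RNA polymerase II transcribes the genes of most of these classes and RNA polymerase III those of U6, from promoters that share an upstream sequence element and a TATA-like box. WDR5A is a WD40-repeat subunit of complexes that methylate histone H3 at promoters, and PKL is a chromatin remodeller of the CHD3 type.

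The lists of the 3 IP libraries held 10864, 10408 and 10826 summits, the single positions at which the peak caller placed the top of each peak. Strength below is the value deposited beside each summit, read as −log10 q, so a larger number is a more significant peak. It depends on read depth, which is unknown here, and its medians were 7.08, 6.48 and 6.64 in replicates 1, 2 and 3. The 3 input libraries enter no count. In whole seedlings, binding in few cells and weak binding in many cannot be told apart, and an snRNA gene without a summit is one at which none was called. The design text of the series calls the replicates biological.

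WDR5A-HA summits were called in all 3 lists at 17 of the 82 snRNA loci, or 20.7%. Over all genes the same share was 20.6%, but this is not a comparison at equal width. The windows had a median of 1153 bp for snRNA genes and 2797 bp for all genes. Genome tiles of 1153 bp gave 7.44% where they touched a protein-coding gene and 3.99% where they did not. A further 5 loci had a summit in 2 lists and 5 in 1 list, and 55 had none. In the single lists 20, 21 and 25 loci had a summit in replicates 1, 2 and 3. These are 26.8% ± 3.23 of the snRNA loci (SD, n = 3). The other classes, counted the same way in all 3 lists, stood at 24.8% for protein-coding genes, 36.6% for transfer RNA (tRNA) genes and 17.1% for small nucleolar RNA (snoRNA) genes.

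Within each list, the share of snRNA loci with a summit was lower than that of tRNA genes in 3 of 3 lists, by a mean of −23.0 ± 3.14 percentage points (SD, n = 3; snRNA minus tRNA; exact sign-flip permutation over lists, 2-sided, p = 0.25). The difference from protein-coding genes was −7.12 ± 3.04 points, also lower in 3 of 3 lists (n = 3, exact permutation p = 0.25). Against snoRNA genes it was −3.95 ± 4.18 points and against all genes −1.66 ± 3.08 points, with snRNA genes higher in 1 of 3 lists in each case (exact permutation p = 0.5 for each). Counting only summits at or above the list median turned the direction against protein-coding genes (1.31 points), all genes (4.06) and snoRNA genes (9.47), and the last also turned with the gene alone (4.24) and with 250 bp flanks (7.32). After Benjamini-Hochberg adjustment over these 4 comparisons every p was 0.5. With 3 lists, 0.25 is the smallest p this test can give, so none of these differences could pass 0.05.

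The strongest calls lay at genes of both spliceosomes: U1, U2, U12 and U4atac. These calls count a summit for every gene whose window holds it. With each summit given to 1 gene of any class, 7 loci were still called (U2.5, U12, U4atac, U6.6, U5.5, U5.6 and U5.10), and none of the 5 called U1 loci was among them. The U1 gene U1.5 (AT1G08115) led with strengths of 15.9, 20.4 and 17.3 in replicates 1, 2 and 3, a mean of 17.9 ± 2.29 (SD, n = 3). Its summits stood at positions 2538014, 2538025 and 2537993 of chromosome 1 (TAIR10), 60, 49 and 81 bp outside the gene. All 3 values were above the median of their list, and the summits lay between the snRNA gene and the coding gene AT1G08110.

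U1.6 (AT3G01715), another U1 gene, reached 18.3, 20.3 and 14.6, a mean of 17.7 ± 2.87 (SD, n = 3). Its summits, at positions 1682041, 1682064 and 1682056 of chromosome 3, were 64, 87 and 79 bp outside the gene and inside the coding gene AT3G05700, which the table draws over the snRNA gene. U1.2 (AT4G07120) was placed alike, 63, 80 and 79 bp outside the gene and inside the coding gene AT4G23420. It was weaker than the other U1 genes named so far, at 10.7, 13.7 and 8.52 (mean 10.97 ± 2.61, SD, n = 3).

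U1.7 (AT3G01695) was called with 9.99, 4.28 and 7.40 (mean 7.23 ± 2.86, SD, n = 3), and its strongest summits did not mark one place. That of replicate 1 was 69 bp from the gene, and those of replicates 2 and 3 were 460 and 439 bp away on the other side. Replicates 1 and 3 each had a second, weaker summit at the other of these places. Replicate 2 had none near the snRNA gene, so U1.7 was called in all 3 lists only through the farther place.

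U1.14p (AT1G06873) was the one called locus with no protein-coding gene within 500 bp. Its strengths were 8.17, 5.50 and 8.02 (mean 7.23 ± 1.50, SD, n = 3), above the list median in replicates 1 and 3 only. Its summits, at positions 12986599, 12986624 and 12986575 of chromosome 1, were 224, 199 and 248 bp outside this entry of 86 bp.

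**Figure D1:**
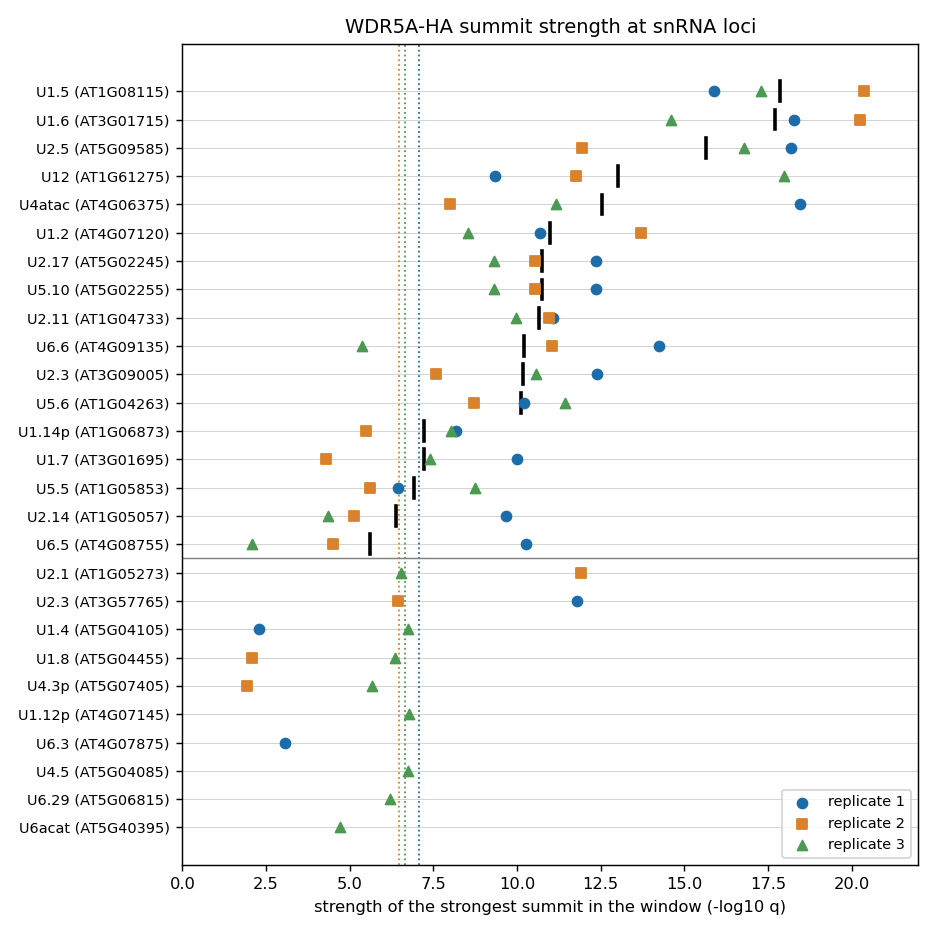
Strength of the strongest summit in the window (−log10 q, linear axis) at the 27 snRNA loci with a summit in at least 1 list. Points are lists, black bars are means over the 3 lists, dotted lines are list medians, and the grey line parts the 17 loci called in all 3 lists from the 10 others. The called means run from 17.9 at U1.5 down to 5.62 at U6.5.

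Among the U2 genes, U2.5 (AT5G09585) was strongest, with 18.2, 11.9 and 16.8 in replicates 1, 2 and 3 (mean 15.6 ± 3.28, SD, n = 3). The summits, at positions 2975293, 2975272 and 2975265 of chromosome 5, were 85, 64 and 57 bp outside the gene, between it and MTHSC70-2, a gene named for a mitochondrial HSP70 chaperone. U2.11 (AT1G04733) had the smallest SD over the lists of all called loci, with 11.1, 10.97 and 9.96 (mean 10.7 ± 0.613, SD, n = 3). Its summits were 125, 69 and 150 bp away, inside the coding gene AT1G09800.

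U2.17 (AT5G02245) and the U5 entry U5.10 (AT5G02255) were called through the same summits, so they are 1 event. Their strengths were 12.4, 10.5 and 9.30 (mean 10.7 ± 1.54, SD, n = 3). The summits were 157, 179 and 131 bp from U5.10 and 464, 486 and 438 bp from U2.17, and U5.10 is a short entry of 42 bp.

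A U2 entry named U2.3 (AT3G09005) reached 12.4, 7.59 and 10.6 (mean 10.2 ± 2.42, SD, n = 3). Its summits in replicates 2 and 3 were inside the snRNA gene and that of replicate 1 was 220 bp outside, all of them within the coding gene AT3G57800. U2.14 (AT1G05057) was weaker, with 9.68, 5.13 and 4.36 (mean 6.39 ± 2.87, SD, n = 3) at 83, 103 and 33 bp from the gene. Its one coding neighbour, AT1G14160 at 427 bp, had a summit in its own window in 0 lists.

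The minor spliceosome was represented by U12 and U4atac. U12 (AT1G61275) had 9.36, 11.8 and 18.0 (mean 13.0 ± 4.45, SD, n = 3), with summits at positions 22603273, 22603340 and 22603349 of chromosome 1. The first was inside the gene and the others 45 and 54 bp outside. U4atac (AT4G06375) had 18.4, 7.99 and 11.2 (mean 12.5 ± 5.36, SD, n = 3), with all 3 summits inside the gene at positions 9096415, 9096404 and 9096440 of chromosome 4. Coding genes stand 22 and 2 bp from it on either side. None of the 3 U6atac entries was called in all 3 lists; AT5G40395, which the table spells U6acat and which was grouped with them here, had 4.72 in replicate 3 alone.

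Among the called U5 and U6 loci, U5.10, described above, had the highest mean, at 10.7. U5.6 (AT1G04263) had 10.2, 8.71 and 11.4 (mean 10.1 ± 1.37, SD, n = 3), with summits 84, 23 and 0 bp from the gene. U5.5 (AT1G05853) had 6.44, 5.60 and 8.75 (mean 6.93 ± 1.63, SD, n = 3) at 52, 57 and 32 bp. Its values were below the list median in replicates 1 and 2 and above it in replicate 3.

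U6 RNA sits at the catalytic centre of the spliceosome. Of its entries, U6.6 (AT4G09135) had 14.2, 11.04 and 5.36 (mean 10.2 ± 4.50, SD, n = 3). All 3 summits were inside the gene, at positions 16754859, 16754859 and 16754840 of chromosome 4. U6.5 (AT4G08755) was the weakest call, with 10.3, 4.51 and 2.07 (mean 5.62 ± 4.22, SD, n = 3). Its replicate 1 summit was 223 bp outside the gene and the others were 32 and 0 bp from it, so the 3 lists did not point to one place. Without replicate 1 its mean was 3.29.

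Over the 17 called loci the mean strength had a median of 10.7. The called snoRNA genes had a median of 5.39, the called tRNA genes 8.64 and the called protein-coding genes 8.90. The median called snRNA locus stood at the percentile 71.5 of its lists, with a range from 34.0 to 87.0. Strength was at or above the list median at 16, 12 and 14 of the 17 loci in replicates 1, 2 and 3, and in all 3 lists at 11. Counting only such summits, 11 of 82 snRNA loci were called (13.4%), beside 9.74% of all genes. The 17 calls rest on 16 separate sets of summits, and at 14 of 17 the 3 summits fell within 250 bp of each other. The median spread was 48 bp, and the exceptions were U1.7 at 690 bp, U6.5 at 354 bp and U2.3 (AT3G09005) at 310 bp.

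Summits in 1 or 2 lists were found at 10 loci. U2.1 (AT1G05273) had 11.9 and 6.54 in replicates 2 and 3. A longer U2.3 entry, AT3G57765, had 11.8 and 6.45 in replicates 1 and 2, inside the entry in both. The values 11.9 and 11.8 were the highest among the loci with fewer than 3 lists.

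The U1 gene U1.4 (AT5G04105) had 2.28 and 6.74 in replicates 1 and 3, and the U4 gene U4.5 (AT5G04085) beside it shared the replicate 3 summit. U1.8 (AT5G04455) had 2.07 and 6.35 in replicates 2 and 3, with no coding gene within 500 bp. U4.3p (AT5G07405) had 1.92 and 5.67 in the same replicates. Replicate 3 alone gave U1.12p (AT4G07145) 6.78 and U6.29 (AT5G06815) 6.19, and replicate 1 alone gave U6.3 (AT4G07875) 3.05.

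**Figure D2:**
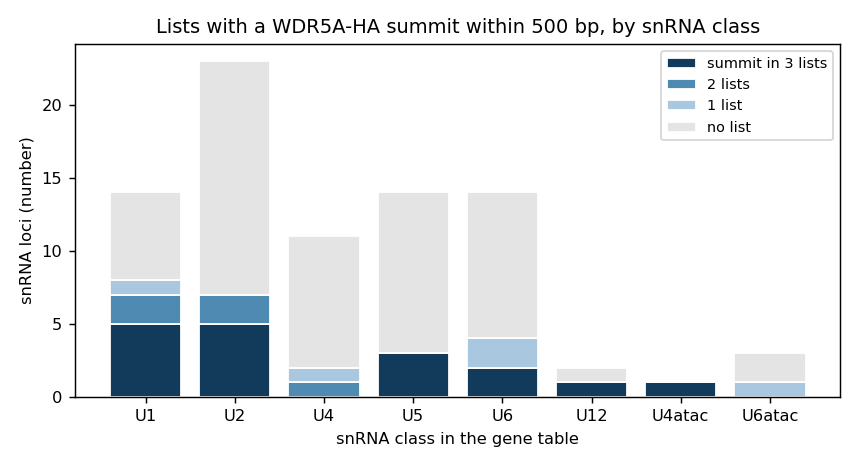
Number of snRNA loci by class, split by how many of the 3 lists had a summit within 500 bp of the gene. U1 and U2 hold 5 called loci each, and U4 holds 0 of 11.

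By class, 5 of 14 U1 loci were called, 5 of 23 U2 loci, 3 of 14 U5 loci and 2 of 14 U6 loci. Of the minor spliceosome entries, 1 of 2 for U12, 1 of 1 for U4atac and 0 of 3 for U6atac were called. None of the 11 U4 loci was called in all 3 lists, and 2 of them, U4.3p and U4.5, had a summit in some list. The U4 RNA pairs with U6 and keeps it inactive until the spliceosome is assembled. The loci without a summit in any list included the U4 gene U4.1 (AT5G07335), the U1 gene U1a (AT5G07345), U2.2 at both of its entries, and the U6 genes U6-1 (AT3G14735), U6-26 (AT3G13855) and U6-29 (AT5G46315). A second entry of the last name, U6.29 (AT5G06815), had 6.19 in replicate 3 alone. The loci with none were 6 of 14 U1, 16 of 23 U2, 9 of 11 U4, 11 of 14 U5 and 10 of 14 U6. Classes this small were compared by counts alone, and the differences between them were not tested.

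In 7 places a U1 and a U4 gene stand next to each other, 189 to 282 bp apart, a grouping made after the calls were seen. Of the 14 loci in these pairs 1 was called, U1.14p. U1 loci outside such pairs were called at 4 of 7, and U4 loci outside them at 0 of 4. The table gives 11 entries a name ending in p, and 1 of these was called, again U1.14p.

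The loci were then separated by their coding neighbours, since a summit near a coding gene's edge can fall in an snRNA window. With a protein-coding gene within 500 bp, 16 of 67 snRNA loci were called, or 23.9%. Without one, 1 of 15 was called, or 6.67%. Over all genes that are not protein-coding, pseudogenes included, these shares were 17.9% and 3.97%.

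A finer split, made after the calls were seen, gave 11 of 30 loci (36.7%) where the coding gene was within 500 bp but did not overlap the snRNA gene. Where it overlapped, 5 of 37 (13.5%) were called. For calls in all 3 lists the other RNA classes gave the same order. In single lists the last groups could change places: snRNA loci in replicate 3 had 21.6% with an overlapping coding gene and 26.7% with none, and snoRNA genes in replicate 2 had 21.4% and 25.4%. Among snoRNA genes 26 of 85 were called with a near coding gene, 12 of 84 with an overlapping one and 11 of 118 with none. For tRNA genes these counts were 200 of 392, 18 of 62 and 11 of 171.

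**Figure D3:**
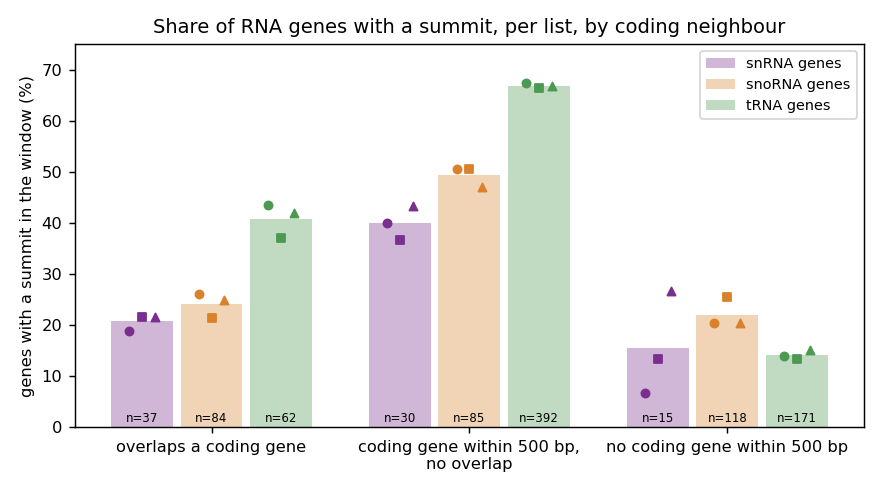
Share of snRNA, snoRNA and tRNA genes with a summit in the window in each list (%), by coding neighbour. Bars are means over the 3 lists, points are single lists, and n is the number of genes. For snRNA genes the lists gave 36.7 to 43.3% with a near coding gene that does not overlap, 18.9 to 21.6% with an overlapping one and 6.67 to 26.7% with none.

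The coding genes near called snRNA loci were mostly called themselves: 18 of the 23 had a summit in their own window in all 3 lists (78.3%). The windows overlap, so the same summit can count for both genes and the share is fixed in part by the choice of loci. Of the 62 coding neighbours of the other snRNA loci 8 were called (12.9%). This share is also fixed in part by the choice of loci, since those snRNA loci were not called. Over all protein-coding genes the share was 24.8%. The 5 that were not called in all 3 lists were AT1G08120 beside U1.5 (0 lists), AT5G09580 beside U2.5 (2 lists), ECT11 beside U2.11 (1 list), AT1G14160 beside U2.14 (0 lists) and APM1 beside U6.5 (2 lists).

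The position of each summit was therefore measured against both kinds of gene, with a distance of 0 inside either. Since U2.17 and U5.10 share their summits, the 17 called loci had 48 separate strongest summits over the 3 lists. Of these 11 were inside an snRNA gene, 35 lay within 100 bp of one, and 13 were inside a protein-coding gene, 2 of them inside both. The median distance was 64 bp to the nearest snRNA gene and 133 bp to the nearest protein-coding gene. The summit was nearer to the snRNA gene in 31 cases and nearer to a coding gene in 15, and 2 were tied.

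The 15 were all 3 summits of U1.2, U1.6, U1.7 and U2.11, that of U1.5 in replicate 3, that of U2.3 (AT3G09005) in replicate 1 and that of U6.5 in replicate 1. At U2.5, U12, U4atac, U6.6, U5.5, U5.6, U5.10, U2.14 and U1.14p the summit was nearer to the snRNA gene than to a coding gene in 3 of 3 lists. Genes of other classes do not enter this measure. With each summit given to 1 gene of any class, U2.14 and U1.14p were no longer called.

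**Figure D4:**
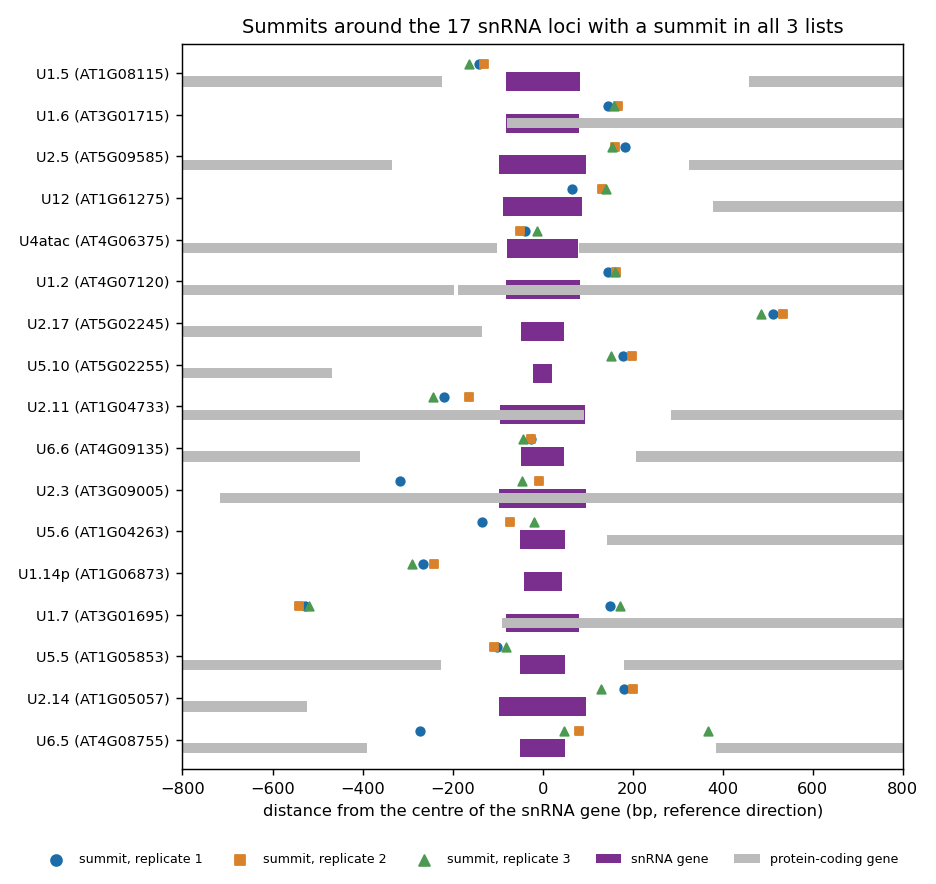
Summits of each list around the 17 called snRNA genes (purple), with protein-coding genes within 500 bp (grey, drawn within the axis range), by distance from the centre of the snRNA gene in bp along the reference. Most summits lie within 100 bp of the snRNA gene edge, while at U1.7, U6.5 and U2.3 (AT3G09005) they fall in separate places. Those of U2.17 lie 438 to 486 bp from that gene.

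The window is centred on the snRNA gene, which bounds that distance at 500 bp but not the one to a coding gene, so the same measure was taken for the other RNA classes. Over the lists 64.6% ± 3.61 of the summits at called snRNA loci were nearer to an snRNA gene than to a coding gene (SD, n = 3). For called tRNA genes the share was 75.1% ± 2.54 and for called snoRNA genes 40.4% ± 5.58 (SD, n = 3). The snRNA share was above the snoRNA share by 24.1 points and differed from the tRNA share by −10.6 points on average, each in the same direction in 3 of 3 lists (exact sign-flip permutation, 2-sided, p = 0.25 for both, the smallest possible). This measure was also chosen after the calls were seen.

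**Figure D5:**
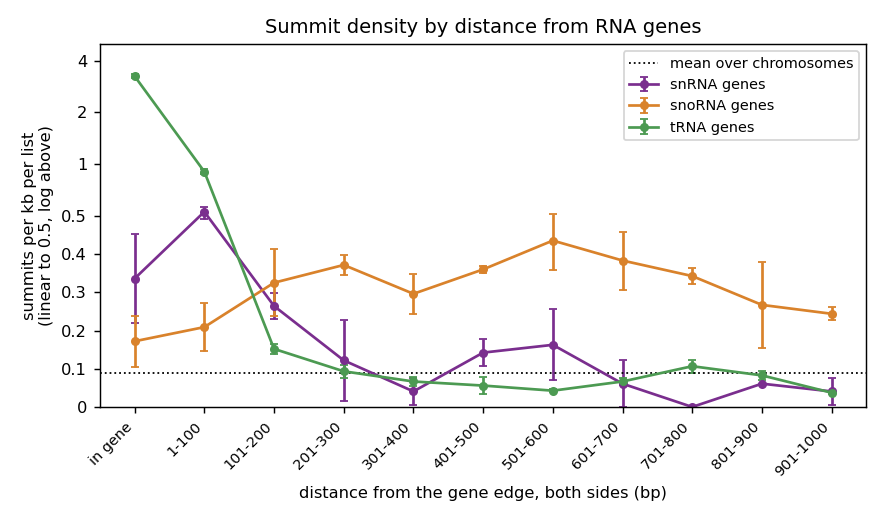
Summits per kb per list in the gene and in bins of 100 bp from the gene edge, both sides pooled, for all snRNA, snoRNA and tRNA genes (mean and SD over 3 lists; the axis is linear to 0.5 and logarithmic above). The snRNA curve is highest from 1 to 100 bp, the tRNA curve inside the gene, and the snoRNA curve away from the gene.

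Over all 82 snRNA genes, called or not and pooled over entries of all lengths, summit density was highest just outside the gene. It was 0.336 ± 0.116 summits per kb per list inside the gene and 0.528 ± 0.0352 from 1 to 100 bp outside (SD, n = 3). From 101 to 200 bp it was 0.264 ± 0.0352 and from 201 to 300 bp 0.122 ± 0.106, beside a mean of 0.0898 over the chromosomes. The value inside the gene depends on entry length. Entries ran up to 912 bp (AT5G46315, no summit) beside a median of 153 bp, and long entries weigh most in it. Density without the long entries was not measured, so the order of these 2 bins may rest on them. The tRNA genes, which RNA polymerase III transcribes from promoters within the gene, had their highest density inside the gene, at 3.25 ± 0.0760. The snoRNA genes had 0.172 ± 0.0671 inside the gene and their highest density from 501 to 600 bp, at 0.436 ± 0.0759. The table gives no strand, so upstream and downstream were not separated.

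Some positions in the gene table are uncertain, and every distance above rests on them. In 7 cases one snRNA name is entered at 2 places on the same chromosome, 3.67 kb apart on chromosome 1 (U12), 11.1 to 11.4 kb apart on chromosome 3 (U2.2, U2.3, U2.4, U2.6) and 17.4 to 17.5 kb apart on chromosome 5 (U2.7, U6.29). Of the first entries 1 was called (U12, AT1G61275), of the second entries 1 (U2.3, AT3G09005), and no name was called at both. Which entry is the transcribed gene was not tested.

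Locus numbers run along each chromosome, and 69 of the 82 entries carry a number out of order with the coding genes on either side (by more than 100). Among themselves these 69 numbers also rise along each chromosome, as a series of their own. A number out of order is therefore not by itself a sign of a wrong position. Of the 13 entries in order 3 were called (23.1%), namely U1.5, U2.5 and U12. Of the 69 out of order 14 were called (20.3%). Summit density within 200 bp, gene included, was 0.357 per kb in each list for the entries in order and 0.384 ± 0.0548 for those out of order (SD, n = 3). From 501 to 1000 bp it was 0.0256 ± 0.0444 and 0.0725 ± 0.0145. In both sets mean density was higher near the entry than away from it. For the entries in order this rests on few summits. In each list 4 of the 13 had a summit in the window, and from 501 to 1000 bp only replicate 1 had any.

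Proteins that work with the snRNAs were taken from a list of 46 protein-coding genes, all matched in the table by locus. Of these 8 were called in all 3 lists, or 17.4%, beside 24.8% of all protein-coding genes, while 6 had a summit in 2 lists, 5 in 1 list and 27 in none. Their mean strengths had a median of 9.66. Both U2 particle proteins of the list were called: U2A' (AT1G09760), which binds the U2 RNA together with U2B'', at 10.8, 13.5 and 20.1 (mean 14.8 ± 4.79, SD, n = 3), and U2B'' (AT2G30260) at 8.78, 15.1 and 10.8 (mean 11.6 ± 3.23, SD, n = 3).

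Of the 4 tri-snRNP proteins 2 were called, STA1 (AT4G03430) at 12.7 ± 3.14 and RDM16 (AT1G28060) at 8.95 ± 3.47, and of the 4 U5 proteins 1, PRP8A (AT1G80070, SUS2 in the table), the scaffold of the catalytic core, at 6.52 ± 0.753 (SD, n = 3). The Sm proteins form the ring around all of these snRNAs but U6 and U6atac. Of their 13 genes 2 were called, SME1 (AT2G18740) at 6.94 ± 0.297 and SMD1A (AT3G07590) at 4.97 ± 1.49 (SD, n = 3). For loci that the table leaves unnamed, such as SME1 and SMD1A, names are those of the list.

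For snRNA transcription, TBP1 (AT3G13445), a TATA-binding protein, was called at 10.4 ± 1.52 (SD, n = 3). TBP2 had 2.09 in replicate 3 alone, and SRD2, the activator of snRNA transcription in Arabidopsis, had no summit. No U1 particle protein was called: U1-70K, U1A and U1C (AT4G03120) had none in any list. None of the 9 LSm genes, whose ring sits on U6, was called in all 3 lists, and LSM2, LSM3A, LSM5, LSM6A, LSM6B and LSM8 had no summit.

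None of the 4 minor spliceosome proteins was called, with U11/U12-65K at 3.03 and 4.52 in replicates 1 and 3 and no summit at U11/U12-35K, U11-48K and U12-31K. The other members without a summit were CLO, PRP31, LIS, GEMIN2, CPSF73-I, SMD1B, SMD2A, SMD2B, SMD3A, SMD3B, SME2, SMF, SMG1 and SMG2.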

How the data were processed

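Summit lists of the 3 IP libraries were analysed, and there was no list for the 3 input libraries here. The authors deposited, per summit, a 1 bp position and a score, read as −log10 q from the named caller and from the lowest values (1.31, 1.33 and 1.30, beside 1.30 for a q of 0.05). The tools, per the submitters' processing notes, were MACS2 2.2.5, Bowtie2 2.3.3, deepTools and fastp, and the build was TAIR10. Thresholds, use of the inputs and read filters were not given in the sources used here. Depth is unknown, so no counting interval is given. The lists share 59 to 73 identical positions pairwise, so none is a copy of another.

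Positions were taken as 1-based. Gene positions, classes and names came from an NCBI RefSeq table of assembly TAIR10.1, whose coordinates are not printed. Summits lay closest to coding gene edges with no shift on 5 of 5 chromosomes, among shifts of up to 1000 bp in steps of 100 bp. The table holds no strand or sequence, so no promoter is printed, and gene starts, exons and UTRs were not assigned.

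A locus was called when each of the 3 lists had a summit in its window, and its strength is that of the strongest summit per list. Class shares were compared within lists by an exact sign-flip permutation test (Python 3.11.15, numpy 2.4.6, pandas 2.3.3, scipy 1.17.1). All loci with a summit are named, the others by class, and of the splicing list the called genes and those with no summit. The loci and lists were chosen with earlier results of these data known.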

Additional observations from a re-analysis of the deposited data

How the results depend on the processing

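The count of 17 called snRNA loci (16 with and 1 without a coding gene within 500 bp) depended most on the window. In the gene alone it was 2 (2 and 0). With each summit given to 1 gene of any class it was 7 (7 and 0), with none of the U1 loci, and with summits at or above the list median 11 (11 and 0). Alternatives that stayed within 1.5 times were 250 bp flanks (15), 1000 bp flanks (18), summits in at least 2 lists (22), a linked region of the 3 lists (15) and overlapping windows merged (16). Leaving out 1 list gave 18 to 20 loci, 17 to 18 with and 1 to 2 without a coding gene, the 2 without replicate 1. The single locus without a coding gene became 2 with 1000 bp flanks or summits in at least 2 lists, and 0 without names ending in p.

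Alternatives chosen after seeing the data kept 12 of 45 loci without entries that overlap a coding gene, and 16 without either the first or the second entry of doubled names or without names ending in p. The 13 entries with locus numbers in order held 3 called loci, 3 with and 0 without a coding gene.

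Class differences changed sign in 5 cases. Against snoRNA genes the difference became 4.24 points in the gene alone, 7.32 with 250 bp flanks and 9.47 with summits at or above the list median. With that last setting it became 1.31 points against protein-coding and 4.06 against all genes. Leaving out 1 list gave −6.36 to −2.61 points against snoRNA, −24.7 to −21.6 against tRNA, −8.75 to −5.74 against protein-coding and −3.33 to −0.287 against all genes. Of single loci, U6.5 moved most relative to its mean, from 5.62 to 3.29 without replicate 1. In absolute terms U4atac moved most, from 12.5 to 9.58 without replicate 1. The cause of these shifts was not tested. The planned promoter motif comparison was not run, since no sequence was used here. No paired analysis was possible because there were lists of only the IP group here.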
